A study of Mus musculus with 3 samples.

Results

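The 9 genes described here belong to the pathway that couples amino acid sensing at the lysosome to the transcription of lysosomal genes, and were measured in the cytosolic RNA of mouse macrophages. They were chosen by symbol: the MiT/TFE transcription factors Mitf, Tfeb, Tfe3 and Tfec, folliculin (Flcn) and its binding partners Fnip1 and Fnip2, and the Rag GTPases Rragc and Rragd. Each symbol matched 1 gene, giving 9 of the 55536 genes in the tables. The series holds 3 libraries of 1 group, so no treatment was compared. They are ribosome-depleted total RNA libraries from the cytosolic fraction of primary C57BL/6J bone marrow-derived macrophages, labelled 0 minutes of stimulation with lipid A at 100 ng/ml. Lipid A is the membrane anchor of bacterial endotoxin and is sensed by the receptor TLR4. The labels call them biological replicates 1, 2 and 3 of separate biosamples with the same donor entry, and state that age and sex were not collected. The labels do not say whether these were separate animals or separate cultures, so every SD here describes only how far the 3 samples differ, and part of that may be technical.

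MiT/TFE factors are basic helix-loop-helix leucine zipper proteins that bind DNA as homodimers or as heterodimers with each other, at E-boxes of the CLEAR (coordinated lysosomal expression and regulation) type. In fed cells the kinase mTORC1 phosphorylates them at the lysosome surface, and 14-3-3 proteins hold the phosphorylated factors in the cytosol. Folliculin, bound to Fnip1 or Fnip2, is the GTPase-activating protein for Rag C and Rag D. The GDP-loaded form of these Rags, paired with Rag A or Rag B, brings TFEB and TFE3 to mTORC1. In human cells the N-terminal residues that bind the Rags are present in TFEB and in the long MITF isoforms, and absent from the melanocyte isoform of MITF. Most of this control acts on proteins, which were not measured. The RNA values show which genes and isoforms were present in the cytosolic fraction.

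The sequences that tell the described isoforms apart are given first, from the GENCODE M21 transcripts of mm10, 5′ to 3′. The first 2 are the coding parts of alternative first exons of Mitf, exon 1A at chr6:97807184-97807287 and the melanocyte exon 1M at chr6:97991921-97991953, both on the plus strand, with the start codon in capitals. Next is the junction with and without the alternative 18-base segment of Mitf at chr6:98006123-98006140, with the segment in capitals and 15 bases of the transcript on each side. For Tfe3, the first 60 coding bases of an upstream and a downstream coding start are given, at chrX:7762945-7763004 and chrX:7766640-7766699 on the plus strand, again with the start codon in capitals. The last is the alternative 90-base exon of Fnip2 at chr3:79507839-79507928 on the minus strand, in capitals with 15 flanking bases of the transcript on each side.
Mitf exon 1A: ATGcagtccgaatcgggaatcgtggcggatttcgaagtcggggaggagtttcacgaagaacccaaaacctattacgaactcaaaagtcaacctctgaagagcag
Mitf exon 1M: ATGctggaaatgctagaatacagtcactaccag
Mitf with the segment: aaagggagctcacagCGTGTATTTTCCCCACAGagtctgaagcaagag
Mitf without the segment: aaagggagctcacagagtctgaagcaagag
Tfe3 upstream start: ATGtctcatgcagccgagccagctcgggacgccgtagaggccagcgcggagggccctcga
Tfe3 downstream start: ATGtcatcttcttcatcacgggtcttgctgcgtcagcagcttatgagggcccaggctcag
Fnip2 with the exon: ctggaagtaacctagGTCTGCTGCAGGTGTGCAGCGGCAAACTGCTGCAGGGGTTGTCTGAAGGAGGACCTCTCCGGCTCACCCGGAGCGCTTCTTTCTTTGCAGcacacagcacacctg

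All 9 genes were detected, which is defined as a TPM (a level per transcript length, given as a part of the library total) of at least 1 in each of the 3 libraries. The same held for 17.0% of all 55536 genes and for 41.0% of the 22028 protein-coding genes. Expected counts summed over genes to 26318761, 41897257 and 56290298 in replicates 1, 2 and 3. The members held between 937 and 51988 expected counts in a library. The half-width of an exact 95% Poisson interval ran from 6.46% to 0.861% of the count. These intervals cover counting error of gene counts only, and part of a TPM can rest on fewer counts. In replicate 1, the short isoform Mitf-208 held 20.0% of Mitf transcripts from 92.8 of 2091 expected counts. Tfe3-214 held 15.5% of Tfe3 transcripts from 39.8 of 3388. Protein-coding genes took 26.2%, 22.0% and 21.7% of the TPM in replicates 1, 2 and 3, so a TPM here is lower than it would be if scaled over messenger RNA alone. Replicate 3 stood apart in nuclear RNAs, with Malat1 at 1008 TPM against 224 and 207 TPM in replicates 1 and 2, and Neat1 at 92.5 TPM against 18.6 and 16.7 TPM. All 10 macrophage markers were detected, with a median of 204 TPM and a range from Itgam at 22.0 TPM to Lyz2 at 4792 TPM. Of the cell types best known for Mitf, 0 of 9 melanocyte, 0 of 5 retinal pigment epithelium and 0 of 10 mast cell markers were detected; their highest genes were Pmel at 0.103 TPM, Best1 at 0.240 TPM and Kit at 0.510 TPM, and Sox10, Lrat and Fcer1a were listed at 0 TPM in every library. Osteoclast markers were detected for 3 of 10 genes, from Atp6v0d2 at 53.1 TPM, a proton pump subunit that is also in the CLEAR list, to Ocstamp at 0. Neutrophil markers were detected for 3 of 8 genes, from S100a9 at 10.8 TPM to Cxcr2 at 0.0300 TPM, and fibroblast markers for 0 of 6, from Col1a2 at 0.0367 TPM to Lum at 0.

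Among the transcription factors, Tfe3 was the highest and the other three lay close together. Tfe3 (chrX:7762560-7775202, plus strand) is a broadly expressed factor that acts beside Tfeb on lysosomal genes. It had 30.3, 24.4 and 21.7 TPM in replicates 1, 2 and 3, or 25.5 ± 4.38 TPM (SD, n = 3). This put Tfe3 at the 85.1 percentile of the protein-coding genes that reached 1 TPM in 1 or more libraries. Tfec (chr6:16833373-16898441, minus strand), the family member with the most macrophage-restricted expression in mouse, had 12.8, 8.69 and 8.60 TPM, a mean of 10.05 ± 2.43 TPM. Tfeb (chr17:47737030-47792419, plus strand), for which the CLEAR network was first described, had 11.3, 8.77 and 9.34 TPM, a mean of 9.81 ± 1.33 TPM. Mitf (chr6:97807052-98021349, plus strand), the factor of melanocytes, osteoclasts and mast cells, had 11.7, 7.87 and 9.40 TPM, a mean of 9.64 ± 1.90 TPM. In bulk RNA, fewer cells with a transcript and less of it per cell cannot be told apart. The ranges of Tfec, Tfeb and Mitf overlapped each other and none reached that of Tfe3. The 3 genes stood at the 62.7, 62.0 and 61.4 percentiles for Tfec, Tfeb and Mitf.

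Summed, the 4 factors came to 66.1, 49.7 and 49.1 TPM in replicates 1, 2 and 3. Tfe3 made up 45.8%, 49.1% and 44.3% of this sum, a mean of 46.4% ± 2.45 (SD, n = 3). Tfec contributed 18.1% ± 1.12, Tfeb 17.9% ± 0.994 and Mitf 17.5% ± 1.67. Tfe3 was therefore the largest part of the family in each library and a little under the other three combined. Within a library Tfe3 stood 2.60 ± 0.239 times above Tfeb, 2.67 ± 0.40 times above Mitf and 2.57 ± 0.228 times above Tfec in TPM (n = 3 each). The second quantification, with the columns that kallisto writes, gave Tfe3 the same mean share of 46.4% ± 3.48.

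Folliculin and its partners were present at unequal levels. Flcn (chr11:59791408-59810016, minus strand) had 22.0, 18.7 and 17.0 TPM, a mean of 19.2 ± 2.55 TPM and the 79.8 percentile. Fnip2 (chr3:79455974-79567796, minus strand) had 94.4, 93.7 and 78.7 TPM, a mean of 88.9 ± 8.88 TPM and the 96.0 percentile. It was the highest of the 9 genes when all annotated isoforms were counted, including those annotated as retained intron. Fnip1 (chr11:54438199-54518235, plus strand) had 18.6, 16.3 and 17.2 TPM, a mean of 17.4 ± 1.16 TPM and the 77.5 percentile. The paralogs did not overlap, and Fnip2 stood 5.08, 5.76 and 4.58 times above Fnip1 in replicates 1, 2 and 3. Fnip2 took 83.6% ± 1.57 of the Fnip1 and Fnip2 sum (n = 3), and 83.7% ± 1.33 in the second quantification. Fnip2 also stood 4.64 ± 0.357 times above Flcn, whereas the ratio of Fnip1 to Flcn was 0.908 ± 0.0904.

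The Rag GTPases work as heterodimers of Rag A or B with Rag C or D, and in this fraction 1 gene of the C and D pair and 1 of the A and B pair led. Rragc (chr4:123917446-123936997, plus strand) had 88.4, 74.8 and 66.0 TPM, a mean of 76.4 ± 11.3 TPM and the 95.3 percentile. Rragd (chr4:32983037-33022180, plus strand) had 18.0, 15.8 and 14.3 TPM, a mean of 16.0 ± 1.87 TPM and the 75.7 percentile. Rragc stood 4.92, 4.73 and 4.63 times above Rragd in replicates 1, 2 and 3, or 4.76 ± 0.145 on average, with an SD of 0.04 on the log2 scale. The partners outside the 9 genes were Rraga at 15.2, 12.1 and 12.7 TPM and Rragb at 0.15, 0.19 and 0.16 TPM. Rragb rested on 14, 22 and 30 expected counts, so of the 4 Rag genes 3 were detected. Rragc stood 5.72 ± 0.485 times above Rraga, so the C and D pair summed to more RNA than the A and B pair in each library.

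**Figure D1:**
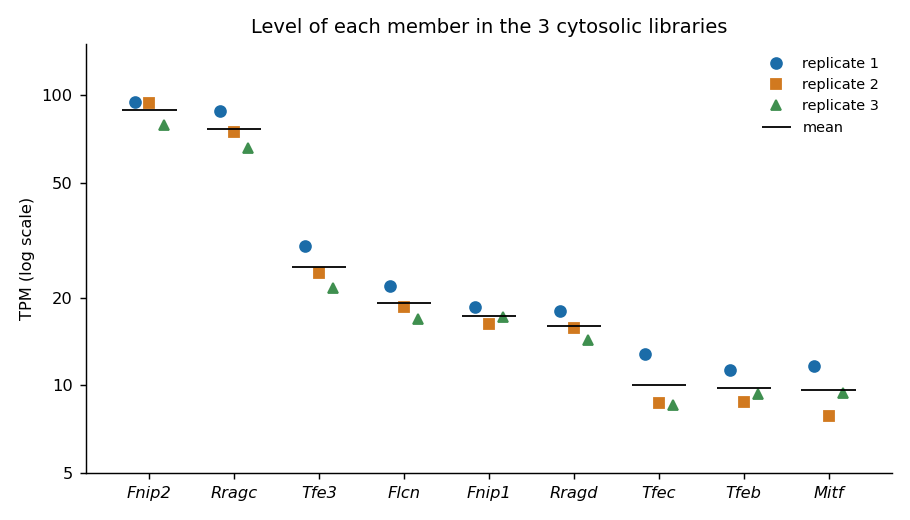
TPM (log scale) of each of the 9 genes, with 1 point per library and a bar at the mean of 3 libraries. Fnip2 and Rragc lie between 66.0 and 94.4 TPM, above all other members, and Tfec, Tfeb and Mitf overlap between 7.87 and 12.8 TPM.

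Ordered by mean TPM, the members ran Fnip2, Rragc, Tfe3, Flcn, Fnip1, Rragd, Tfec, Tfeb and Mitf. Of the 8 neighbouring pairs, only Rragc and Tfe3, and Rragd and Tfec, had ranges that did not overlap over the libraries. Fnip2 exceeded Rragc, Tfe3 exceeded Flcn and Fnip1 exceeded Rragd in 3 of 3 libraries, although their ranges overlapped. The TPM of a gene counts all its annotated isoforms. Those annotated as retained intron held 15.3%, 18.0% and 16.8% of Fnip2 transcripts in replicates 1, 2 and 3, against 0%, 0% and 0.0700% for Rragc. The order of Fnip2 and Rragc over coding isoforms alone was not compared. Flcn exceeded Fnip1 in 2 of 3 libraries. Tfec exceeded Tfeb, and Tfeb exceeded Mitf, in only 1 of 3 libraries each, so these 3 factors have no order beyond their spread. No order was tested, since with 3 libraries the smallest p of an exact sign-flip test is 0.25. The levels of the second quantification were lower for every member, at 41.5 ± 6.91 TPM for Fnip2, 32.9 ± 4.70 TPM for Rragc and 11.6 ± 2.16 TPM for Tfe3, and between 4.20 and 8.72 TPM for the other 6. It kept the order but for the last pair, with Mitf at 4.53 ± 0.507 TPM and Tfeb at 4.20 ± 0.325 TPM.

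All 9 genes had their highest TPM in replicate 1, which was also the case for 82.3% of the 9023 detected protein-coding genes, against 6.65% highest in replicate 2 and 10.6% in replicate 3. To remove this shift, expected counts of all genes were scaled by TMM (trimmed mean of M values, a factor per library set by the bulk of genes) and given as log2 CPM (the log2 of counts scaled to library size). On this scale replicate 1 was highest for 6 members (Mitf, Tfeb, Tfe3, Tfec, Flcn and Rragc), against 34.6% of 11235 protein-coding genes, replicate 2 for Fnip2 and Rragd, against 31.8%, and replicate 3 for Fnip1, against 33.6%. The SD over libraries had a median of 0.10 log2 units over the members, against 0.12 over all 12413 genes past the filter (quartiles 0.07 and 0.22) and 0.09 over the 4738 protein-coding genes at or above the lowest member's mean log2 CPM. It was lowest for Fnip1, with log2 CPM of 7.60, 7.64 and 7.69 (SD 0.05). It was highest for Tfec, with 5.13, 4.81 and 4.77 (SD 0.19), where replicate 1 lay above the other two. Mitf followed at 6.26, 5.99 and 6.23 (SD 0.15), where replicate 2 lay below the others, and then Fnip2 at 9.94, 10.15 and 9.89 (SD 0.13), where replicate 2 lay above them. In all, 6 members fell below the all-gene median SD of 0.12. The members' median of 0.10 was not below the 0.09 of the protein-coding genes at or above the lowest member's level. On the scale of log2(TPM + 1), which keeps the shift of replicate 1, the median SD was 0.18 over the members against 0.15 over detected genes, and 2 members lay below 0.15.

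**Figure D2:**
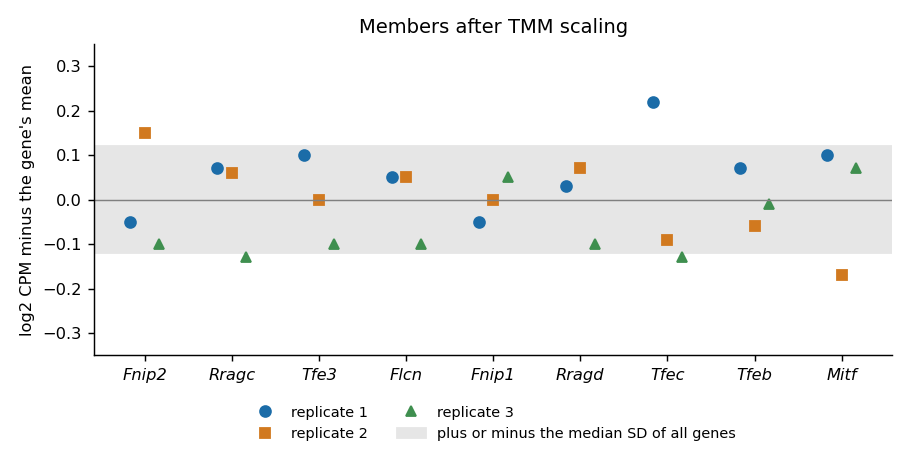
TMM-scaled log2 CPM of each member minus its mean over 3 libraries, with 1 point per library; the grey band is plus or minus the median SD of all genes past the filter (0.12). Tfec in replicate 1 (0.22), Mitf in replicate 2 (-0.17) and Fnip2 in replicate 2 (0.15) lie outside the band. Rragc and Tfec in replicate 3 (-0.13) lie just outside it.

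Genes with a profile like that of the leading factor and of the leading folliculin or Rag gene were sought among protein-coding genes within 0.5 of its mean log2 CPM, by Euclidean distance between centred log2 CPM over the 3 libraries. For Tfe3 these were Rab43 (distance 0.00368), the glucose-6-phosphate dehydrogenase gene G6pdx (0.00406) and the adaptor gene Sh3bp2 (0.00736). In all, 86 of 1146 candidate genes lay within 0.05 of Tfe3, so many genes were about as close. For Fnip2 they were Gas6 (0.0503), a ligand of TAM receptors, Pabpc1 (0.0755), a poly(A)-binding protein, and Atp6v0c (0.0944), a subunit of the lysosomal proton pump, and 0 of 58 candidates lay within 0.05. A profile here holds only the differences between 3 libraries of 1 group. Shared regulation of these genes was not tested.

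Isoform shares, the percent of a gene's transcripts assigned to each annotated isoform, resolved 65 annotated isoforms of the members, of which 19 had a mean of at least 5%. The leading isoform was the same in both quantifications for 8 of 9 members, the exception being Flcn. Shares of single isoforms depended on the quantification, and the RSEM-format share is given before the kallisto-format one.

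In Mitf, the isoforms that start at exon 1A dominated. The 3 isoforms with this exon took 79.7%, 86.2% and 88.5% of Mitf transcripts in replicates 1, 2 and 3, against 84.9%, 95.8% and 89.8% in the kallisto-format tables. Most of it was Mitf-202 (coding length 1578), at 76.8%, 79.9% and 79.5%, with kallisto-format shares of 67.3%, 65.5% and 65.6%. Exon 1A, whose coding part was given above, starts 185 kb upstream of exon 1M in the genome. The full melanocyte isoform Mitf-201, which starts at exon 1M, was at 0%, 0.410% and 0%, where 3 counts would have given 0.322%, 0.265% and 0.170%. Its kallisto-format shares were 2.32%, 1.73% and 2.64%. The isoform starting at exon 1H was at 0% in every library, where 3 counts would have given 0.284%, 0.234% and 0.151%, and at 0%, 1.64% and 2.88% in the kallisto-format tables. The isoform at exon 1B was at 0%, 0.170% and 0.830%, which rest on 0, 2 and 17 expected counts, and at 0.516%, 0.932% and 1.38% in the kallisto-format tables. The second isoform past 5% was Mitf-208 (coding length 1071), a coding-only model that also carries the 1M exon. It was assigned 20.0%, 13.2% and 10.7% from 92.8, 75.2 and 94.7 expected counts, but 11.8%, 0% and 3.04% in the kallisto-format tables, so the share of exon 1M as a whole was not settled by these data.

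The 18-base segment of Mitf lies just before the basic region, and its isoforms are the plus and minus forms known from melanocytes. Isoforms without it took 22.0%, 19.2% and 14.6% of Mitf transcripts, and 27.7%, 30.0% and 20.6% in the kallisto-format tables. The isoforms that made up this share differed: Mitf-208 held most of it in the first set, and Mitf-207, which starts at exon 1A, in the second (3.96% ± 2.02 against 21.1% ± 7.69). Isoforms with the segment led in all 3 libraries in both, at 79.3% ± 1.89 and 71.1% ± 1.55 (n = 3).

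Tfe3 was spread over 5 isoforms at 5% or more. Tfe3-204, with its coding start in the third exon, led at 42.3%, 33.3% and 35.5% (kallisto-format mean 36.3%). Together the 5 isoforms that use this downstream start took 64.6%, 66.1% and 64.6%, and the 2 that use the upstream start took 19.0%, 16.2% and 18.5%. In the kallisto-format tables these were 52.3% ± 0.466 and 22.4% ± 0.551. The groups did not overlap in either, and the coding length was 1716 for Tfe3-201, which uses the upstream start at 17.9% ± 1.51 (kallisto-format mean 22.4%), and 1401 for Tfe3-204. Tfe3-205, which lacks an exon of 105 bases (chrX:7767893-7767997) and has a coding length of 1296, was at 17.2%, 27.0% and 23.3%, but at 6.93%, 10.9% and 6.82% in the kallisto-format tables. Tfe3-206 was at 5.23% ± 0.409, against 6.08% ± 0.742. Tfe3-214 was at 15.5%, 15.4% and 11.6%, but it is a 408-base fragment annotated as incomplete at both ends and rested on 39.8, 62.0 and 53.9 expected counts. Its kallisto-format share was 22.0% ± 2.69.

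Tfec was nearly a single isoform, with Tfec-201 at 96.7%, 96.9% and 85.6%, lowest in replicate 3, and with kallisto-format shares of 95.5%, 95.9% and 82.0%. Tfeb was split between Tfeb-202, which encodes a complete protein (coding length 1425), at 51.8%, 52.3% and 45.8%, and Tfeb-212 at 45.9%, 44.3% and 46.0%. Tfeb-212 is annotated with an incomplete coding start and lacks an exon of 255 bases (chr17:47786278-47786532). The kallisto-format shares were 62.2%, 67.7% and 48.7% for Tfeb-202 and 20.0%, 19.0% and 22.5% for Tfeb-212, so Tfeb-202 led in each library in those tables, whereas in replicate 3 of the RSEM-format tables the 2 isoforms were level.

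Flcn was divided between Flcn-203 at 48.4%, 49.4% and 48.7% and Flcn-202 at 46.0%, 44.3% and 38.3%. Both have the same coding exons (coding length 1737) and differ in a noncoding first exon and in where the last exon ends. The kallisto-format tables reversed their order, with 37.2%, 40.2% and 38.5% for Flcn-203 and 54.5%, 49.7% and 43.3% for Flcn-202. Fnip1 was almost wholly Fnip1-201, at 99.1% ± 0.577, against 97.9% ± 1.08. In Fnip2, Fnip2-203 (coding length 3414) led at 70.7%, 68.7% and 71.5%, against 58.1% ± 0.434 in the kallisto-format tables. It carries the 90-base exon given above. Fnip2-201 (coding length 3324), without that exon and with a shorter last exon, was at 13.8%, 13.1% and 11.2%, against 23.1% ± 3.61. The long isoform with the exon therefore led in both. The remaining Fnip2-205, annotated as retained intron, had 14.9%, 17.9% and 15.6%, against 14.3% ± 0.972.

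Rragc was represented by Rragc-201, at 98.5%, 98.7% and 97.6%, against 96.0%, 96.9% and 88.6%. Rragd-203 (coding length 1197) led Rragd at 71.5%, 69.1% and 69.4%, and Rragd-202 (coding length 837), which lacks an exon of 296 bases (chr4:32995802-32996097), followed at 28.4%, 30.9% and 29.2%. The kallisto-format tables gave Rragd-203 99.8%, 99.6% and 92.9%, and Rragd-202 only 0.158%, 0.0129% and 5.10%, so its presence depends on the quantification.

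**Figure D3:**
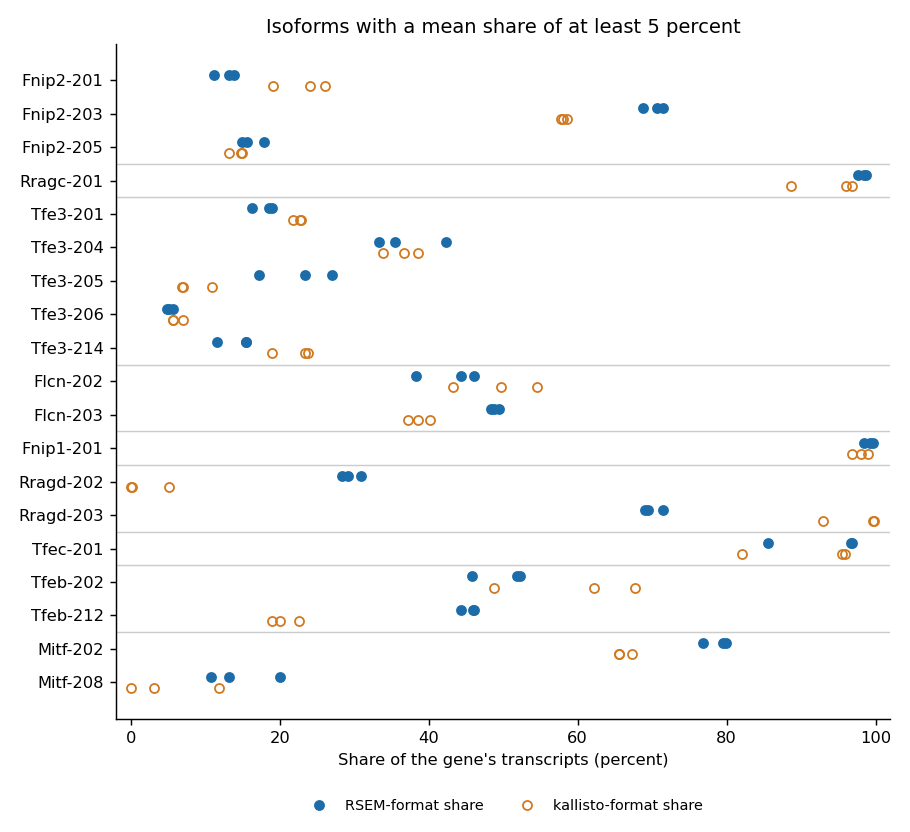
Share of the gene's transcripts (percent) for the 19 isoforms with a mean RSEM-format share of at least 5%, with 1 point per library; filled points are RSEM-format shares and open points kallisto-format shares, and grey lines divide the genes. The 2 sets differ most for Rragd-202 (29.5% and 1.76% on average), Rragd-203 (70.0% and 97.5%) and Tfeb-212 (45.4% and 20.5%).

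Isoforms annotated as retained intron are annotated for 7 of the 9 members, all but Fnip1 and Rragd. Their share was highest in replicate 3, the library with the most Malat1 and Neat1, in 5 of these 7, as in 79.8% of 3151 protein-coding genes of the same level range. Flcn had 4.60%, 2.95% and 10.6% in replicates 1, 2 and 3, Tfec had 1.64%, 1.40% and 7.01%, Mitf had 0.880%, 0.300% and 5.11%, and Tfe3 had 0.820%, 1.25% and 4.97%. In each of these 4 genes replicate 3 stood above both others. Rragc was at 0%, 0% and 0.0700%, on 0, 0 and 2 expected counts, where 3 counts would have given 0.0969% in replicate 3. The exceptions were Tfeb, with 0.610%, 0% and 0.300% on 1, 0 and 1 expected counts, and Fnip2, with 15.3%, 18.0% and 16.8%. The calls for Rragc and Tfeb thus rest on at most 2 expected counts in a library. In the kallisto-format tables replicate 3 was highest in all 7, as in 84.4% of the 3151 genes, with 0.709%, 0% and 2.18% for Tfeb and 16.3%, 15.5% and 20.0% for Fnip2, so both exceptions depend on the quantification. The kallisto-format shares of the other 5 in replicate 3 ran from 3.18% for Rragc to 13.3% for Flcn. Summed over the 9 genes, the share was 5.24%, 6.63% and 7.11% in replicates 1, 2 and 3. As a share of expected counts it was 4.38%, 5.60% and 5.47%, highest in replicate 2. Fnip2-205 held most of this sum, and without it the share was 0.657%, 0.390% and 2.04%. In the kallisto-format tables the sum was 6.11%, 6.10% and 9.69% with Fnip2-205, and 1.38%, 0.764% and 5.26% without it. The part of nuclear RNA in this was not tested.

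**Figure D4:**
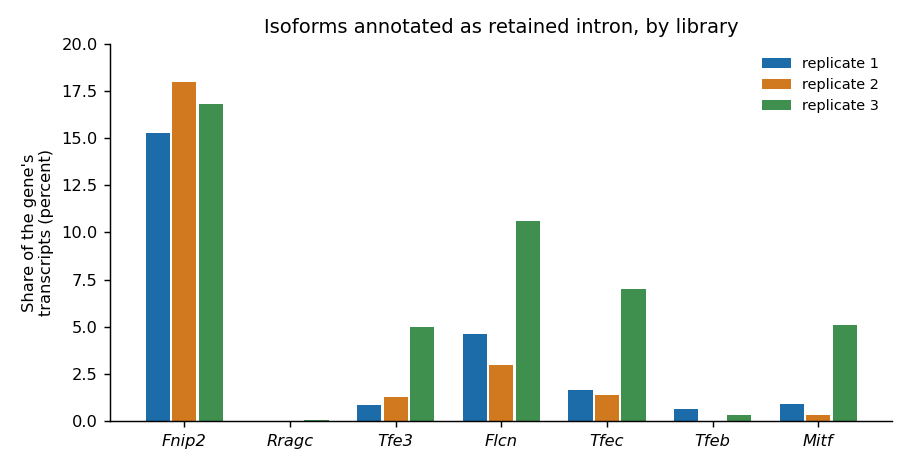
RSEM-format percent of each gene's transcripts assigned to isoforms annotated as retained intron, for the 7 members that have such isoforms, with 1 bar per library. Replicate 3 is highest for Tfe3, Flcn, Tfec and Mitf (4.97% to 10.6%) and for Rragc (0.0700%, on 2 expected counts). Fnip2 lies between 15.3% and 18.0% in all libraries.

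The genes around the members in the pathway were described from 8 lists of genes outside the members. List medians were taken over all genes of a list, detected or not. The median was 7.19 TPM over the 9023 detected protein-coding genes and 0.140 TPM over all 22028 protein-coding genes. A list with undetected genes is therefore not set on the same footing as the 7.19 TPM. The Ragulator scaffold that anchors the Rags, with the transporter Slc38a9, was detected in 6 of 6 genes with a median of 30.8 TPM. Lamtor1, the lipid-anchored subunit, led at 66.3 ± 10.3 TPM, followed by Lamtor5 at 36.1 ± 8.26 TPM and Lamtor3 at 32.0 ± 3.82 TPM, and Lamtor4 at 18.1 ± 3.69 TPM and Slc38a9 at 4.52 ± 0.906 TPM were lowest. Rragc thus lay in the range of the highest Ragulator subunit, and Rragd near the lowest one. mTORC1 and its GTPase switch were detected in 9 of 9 genes at a lower median of 5.79 TPM. Here the activating GTPase Rheb led at 15.5 ± 1.89 TPM, followed by the mTORC1 inhibitor Akt1s1 at 13.6 ± 1.01 TPM and the Rheb inhibitor Tsc2 at 8.71 ± 0.685 TPM, and the inhibitor Deptor at 2.71 ± 0.431 TPM and the subunit Mlst8 at 2.47 ± 0.379 TPM were lowest.

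The GATOR and KICSTOR complexes with the amino acid sensors, which set the state of Rag A and B, were detected in 14 of 17 genes with a median of 2.23 TPM. The leucine sensor family gene Sesn1 led at 57.8 ± 6.94 TPM, followed by Sec13 at 20.6 ± 3.02 TPM, a protein shared with the nuclear pore and COPII coats, and the S-adenosylmethionine sensor gene Bmt2 at 8.73 ± 1.86 TPM. Kptn at 1.02 ± 0.240 TPM and the arginine sensor Castor1 at 0.937 ± 0.0666 TPM were lowest. AMPK subunits, which act on the same pathway in energy stress, were detected in 5 of 7 genes with a median of 5.48 TPM. Prkag1 at 7.81 ± 1.43 TPM, the catalytic Prkaa1 at 6.94 ± 0.757 TPM and Prkab1 at 6.83 ± 0.491 TPM led, and Prkaa2 at 0.0433 TPM and Prkag3 at 0.0167 TPM were lowest.

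The genes that set where TFEB lies in the cell (calcium release, calcineurin, 14-3-3 proteins and export) were detected in 12 of 12 with a median of 28.6 TPM. The 14-3-3 genes Ywhah at 83.7 ± 2.84 TPM, Ywhaz at 73.4 ± 10.3 TPM and Ywhae at 68.4 ± 8.66 TPM led, and the calcineurin catalytic genes Ppp3cb at 9.84 ± 1.25 TPM and Ppp3cc at 1.84 ± 0.278 TPM were lowest. The 3 repressors of lysosomal genes reported here were all detected, with Foxk2 at 6.06 ± 0.702 TPM, Zkscan3 at 4.79 ± 0.718 TPM and Foxk1 at 3.94 ± 0.331 TPM. Tfe3 lay above all 3 in every library. Other basic helix-loop-helix leucine zipper factors that bind E-boxes were detected in 12 of 17 genes with a median of 6.88 TPM. Max, the partner of Myc, had 30.2 ± 5.22 TPM, the sterol regulator Srebf2 24.6 ± 3.16 TPM and Usf2 23.0 ± 5.23 TPM, which set them in the same range as Tfe3 and above Mitf, Tfeb and Tfec. Mlxipl at 0.010 TPM and Mycn at 0 TPM were lowest, with 0, 1 and 1 expected counts for Mlxipl and 0, 0 and 1 for Mycn.

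The lysosomal and autophagy genes of the CLEAR network, known as targets of TFEB, were detected in 32 of 32 genes with a median of 48.7 TPM, above every MiT/TFE factor. Prosaposin (Psap) led at 4805 ± 354 TPM, followed by the cathepsins Ctsd at 3888 ± 267 TPM and Ctsb at 2434 ± 262 TPM. Ctsf at 3.19 ± 0.376 TPM and the autophagy gene Wipi1 at 2.37 ± 0.0808 TPM were lowest. With 1 group and no perturbed factor, these levels do not tell which of them depend on a member.

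**Figure D5:**
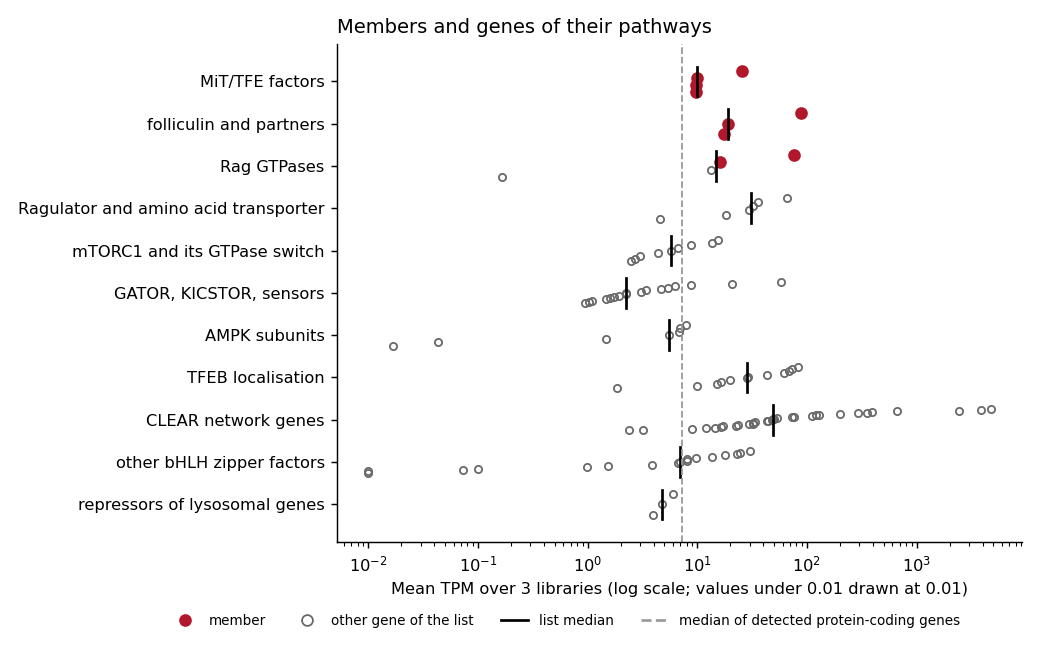
Mean TPM over 3 libraries (log scale, values under 0.01 drawn at 0.01) of the genes of 11 pathway lists, with members as filled points, other genes as open points and list medians as black bars; the dashed line is the median of detected protein-coding genes (7.19 TPM). All 9 members lie to the right of the dashed line.

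The E-box of the factors was searched in promoter windows, to see whether the genes for the regulators hold the motif of their own targets. The motifs were the E-box core CACGTG, the longer form TCACGTG that contains it, and the variant TCATGTG, each on both strands, in RefSeq windows (GRCm38.p6) from 250 bases before to 50 bases after each start; 9 of 9 members matched, with 14 windows. Over all 32851 windows, CACGTG was found in 7.15%, TCACGTG in 3.77% and TCATGTG in 3.77%. Among the members 2 windows held it, those of Rragc and Fnip1, and both matches were TCACGTG on the minus strand of the window, shown as CACGTGA. The match starts 112 bases before the start of Rragc and 75 bases before that of Fnip1. The 9 windows of Mitf, Tfeb, Tfe3 and Tfec, and those of Flcn, Fnip2 and Rragd, held none of the 3 motifs. Of the CLEAR list, 25 of 32 genes matched, and 13 of their 28 windows held CACGTG (46.4%) and 12 TCACGTG (42.9%). The genes of this list are known as targets of factors that bind this motif, so its share there is no independent result. CACGTG was also in 2 of the 5 Ragulator windows, 2 of the 8 mTORC1 windows and 5 of the 20 windows of other E-box factors. It was in 1 of the 8 windows of the TFEB localisation list. The Rag GTPase list had it in 2 of 4 windows and the folliculin list in 1 of 3, each with the member window included. It was in 0 of the 15 windows of the GATOR and sensor list, 0 of the 9 AMPK windows and 0 of 1 repressor window. TCATGTG was in 2 Ragulator, 4 CLEAR, 1 AMPK and 1 TFEB localisation windows, and in 0 windows of the other lists. Some lists matched only in part: 5 of 6 Ragulator, 8 of 9 mTORC1 and 14 of 17 GATOR and sensor genes. So did 8 of 12 TFEB localisation genes, 14 of 17 other E-box factors and 1 of the 3 reported repressors. The windows of Rragc at chr4:123917183-123917482 and of Fnip1 at chr11:54437929-54438228, both on the plus strand, are shown because they hold the match, which is in capitals. A match describes the letters and is not a bound site.
Rragc promoter: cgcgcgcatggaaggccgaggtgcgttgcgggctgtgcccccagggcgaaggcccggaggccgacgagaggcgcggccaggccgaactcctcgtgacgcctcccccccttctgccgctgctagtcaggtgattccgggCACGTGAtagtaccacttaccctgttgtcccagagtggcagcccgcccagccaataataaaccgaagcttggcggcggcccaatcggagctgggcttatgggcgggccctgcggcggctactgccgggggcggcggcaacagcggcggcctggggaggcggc
Fnip1 promoter: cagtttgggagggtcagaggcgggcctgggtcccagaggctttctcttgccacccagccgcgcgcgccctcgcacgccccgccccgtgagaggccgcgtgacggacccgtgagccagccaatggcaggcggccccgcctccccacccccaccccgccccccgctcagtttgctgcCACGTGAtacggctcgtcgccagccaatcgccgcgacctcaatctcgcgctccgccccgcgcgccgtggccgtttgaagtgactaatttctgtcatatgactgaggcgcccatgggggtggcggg

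In the annotation 7 genes overlap 5 of the members (Mitf, Fnip1, Fnip2, Rragc and Rragd). The highest of them was the pseudogene Gm12902 in Rragc, at 1.20 TPM in replicate 3, against 66.0 TPM of Rragc in the same library. Whether reads of an overlapping gene were assigned to a member was not tested.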

How the data were processed

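The report rests on 3 libraries of 1 group, read from the gene table and both transcript tables of each. The authors deposited expected counts (estimated reads per gene or transcript) and TPM in the columns that RSEM writes, a posterior mean TPM beside it, and the isoform share of each transcript as a percent, per the file headers; a further table per library, in the format of kallisto, gave transcript TPM that were summed per gene. Values refer to mm10 and GENCODE M21, per the labels and the transcript names; aligner and quantifier versions are not given in the sources used here. Depth and precision stand in the report.

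Expected counts were rounded to whole numbers and scaled with edgeR 4.0.16 (R 4.3.3; filterByExpr, TMM, intercept only, prior count 2); the SD step was tested on simulated data. DESeq2 1.42.0 size factors were an alternative. No p-value was computed. Named genes were all 9 members, of each pathway list the highest 3 and lowest 2 outside the members, of each marker list the highest and lowest, isoforms with a mean share of at least 5%, and for 2 members the 3 nearest genes by profile; Mitf isoforms 201 and 207, the isoforms at exons 1H and 1B, Gm12902, Malat1 and Neat1 were named after their values were seen. The members and lists were chosen with earlier results of these data known, and 1 gene of the repressor list was left out of its counts and is not reported here. The shares by first exon and segment of Mitf, and of retained introns, were added after seeing the data. Protein sequences were not used here, so the planned protein comparison was not made.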

Additional observations from a re-analysis of the deposited data

How the results depend on the processing

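No paired analysis was possible because the series holds 1 group. All 9 members were also detected under posterior mean TPM, kallisto-format TPM and a minimum of 5 TPM; a minimum of 0.1 TPM, TPM over protein-coding genes alone or leaving out a library could not lower this count and are no check of it. Of the 8 neighbouring pairs, CPM not divided by length kept 5; the other settings kept 7 or 8, and leaving out a library 7 to 8. The median SD of the members was 0.18 on log2(TPM + 1) and 0.19 on log2(TPM + 0.1), against 0.10 as reported, and 0.07 to 0.11 on leaving out a library. Without replicates 1, 2 and 3 in turn, 4, 5 and 5 members lay below the all-gene median. At a minimum of 5 TPM, 5 of 9 mTORC1 genes, 4 of 17 GATOR and sensor genes and 1 of the 3 reported repressors were detected. With kallisto-format TPM, 8 of 17 GATOR and sensor genes, 7 of 9 mTORC1 genes and 4 of 7 AMPK genes were detected. The TFEB localisation list gave 11 of 12 and the other E-box factors 11 of 17. Levels of every member were lower in that quantification, so 1 TPM is not the same cut there. The median percentile of the members was 77.5, 90.4 among all protein-coding genes with no filter, 74.4 with kallisto-format TPM, and 76.8 to 77.9 on leaving out a library. Of 19 isoform shares, 17 moved by more than 1 SD in the kallisto-format tables; leaving out 1 of 3 libraries cannot move a mean by 1 SD, so it is no check of these shares. For isoforms on fewer than 100 expected counts, such as Mitf-208 and Tfe3-214, depth limits the share.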
